A study of Mus musculus with 8 samples.

Results

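The 10 genes described here, Nlrc3, Trap1, Adcy9, Srl, Glis2, Coro7, Ubn1, Tmem186, Pmm2 and Carhsp1, lie near Crebbp on mouse chromosome 16. In gene order they are from 1 to 65 places away from it. They were chosen by name, and every probe set whose annotation lists only that gene was kept. This gave 28 of the 45037 probe sets left on the array after its control spots were set aside. A probe set is a group of short probes that together report 1 transcript region. Of the 28, 26 had a mean signal above 2.72 on the log2 scale, the median over all probe sets, and were tested; each of the 10 genes kept at least 1. The omitted pair, 1 probe set of Adcy9 and 1 of Nlrc3, had mean signals of 2.32 and 2.31.

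The study measured RNA of blood stem cells sorted from mouse fetal liver, with wild-type embryos on one side and embryos carrying 1 mutant Crebbp copy (Crebbp+/-) on the other, both on a C57BL/6 background. Cells were positive for Sca-1 and AA4.1, strongly positive for c-Kit and negative for lineage markers, and each preparation joined the cells of 15 embryos. The labels date the embryos at 14.5 days post coitum in one field and at 14 in another, and they state neither the litter nor the part of Crebbp that the mutant allele lacks. Each genotype has samples numbered 1 and 2 and each sample has 2 arrays, which were averaged, so that n = 2 per genotype. Nothing shows that the samples came from separate matings, so the p-values measure the spread between these 4 preparations.

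Crebbp encodes CBP, a coactivator that acetylates histones and is recruited to genes by transcription factors such as CREB. CREB binds the cAMP response element (CRE) and is activated when adenylyl cyclases raise cyclic AMP. Genes next to a mutated locus are inherited together with the mutant allele, so their levels are commonly inspected in such a comparison. The neighbours themselves have unrelated roles, which range from a mitochondrial chaperone (Trap1) to an enzyme of glycosylation (Pmm2).

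In the gene order of the GRCm38.p6 gene table, Trap1 is the next gene to Crebbp on one side, and Nlrc3 is the fourth gene on that side. On the other side Adcy9 is 4 genes away, Srl 6, Glis2 9, Coro7 11 and Ubn1 31, while Tmem186, Pmm2 and Carhsp1 follow one another at 63, 64 and 65 genes. Only 34 genes of the table precede Crebbp on the chromosome.

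No neighbour passed the test between genotypes. In limma, with Benjamini-Hochberg adjustment over all 22518 tested probe sets, 0 of the 26 member probe sets were called and the background was 0%. At an unadjusted limma p under 0.05, 2 of 26 were higher in Crebbp+/- (one of Carhsp1 and that of Srl), against 1.23% of all tested, and 1 was lower (one of Tmem186), against 3.61%. Neither count held in every fit that left out a whole sample, and the counts over all tested probe sets changed as well. Such a fit keeps 1 sample in a genotype. The member count of lower probe sets was 0 without array 2 of either wild-type sample, and 2 without array 1 of wild-type sample 1. Over all tested probe sets, 686 and 751 were lower without array 2 of wild-type samples 1 and 2, against 813 with all arrays. Without array 1 of wild-type sample 1, 814 were lower. The member count of higher ones was 1 without array 1 of Crebbp+/- sample 1.

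The median difference (Crebbp+/- minus wild type) was -0.09 over the 26 member probe sets and 0.02 over all tested ones, both on the log2 scale. Of the 26, 11 were above 0 and 15 below. With only the brightest probe set of each of the 10 genes, the median was -0.003, with 5 above 0 and 5 below. Both Crebbp+/- samples lay above both wild-type samples for 6 member probe sets, against a background of 15.6%, and below them for 4, against 15.4%. All 4 arrays of Crebbp+/- lay above all 4 of wild type for 4 member probe sets, against 3.24%, and below for 1, against 3.74%. The 4 belong to Carhsp1, Srl, Coro7 and Glis2, and the remaining one to Pmm2.

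**Figure D1:**
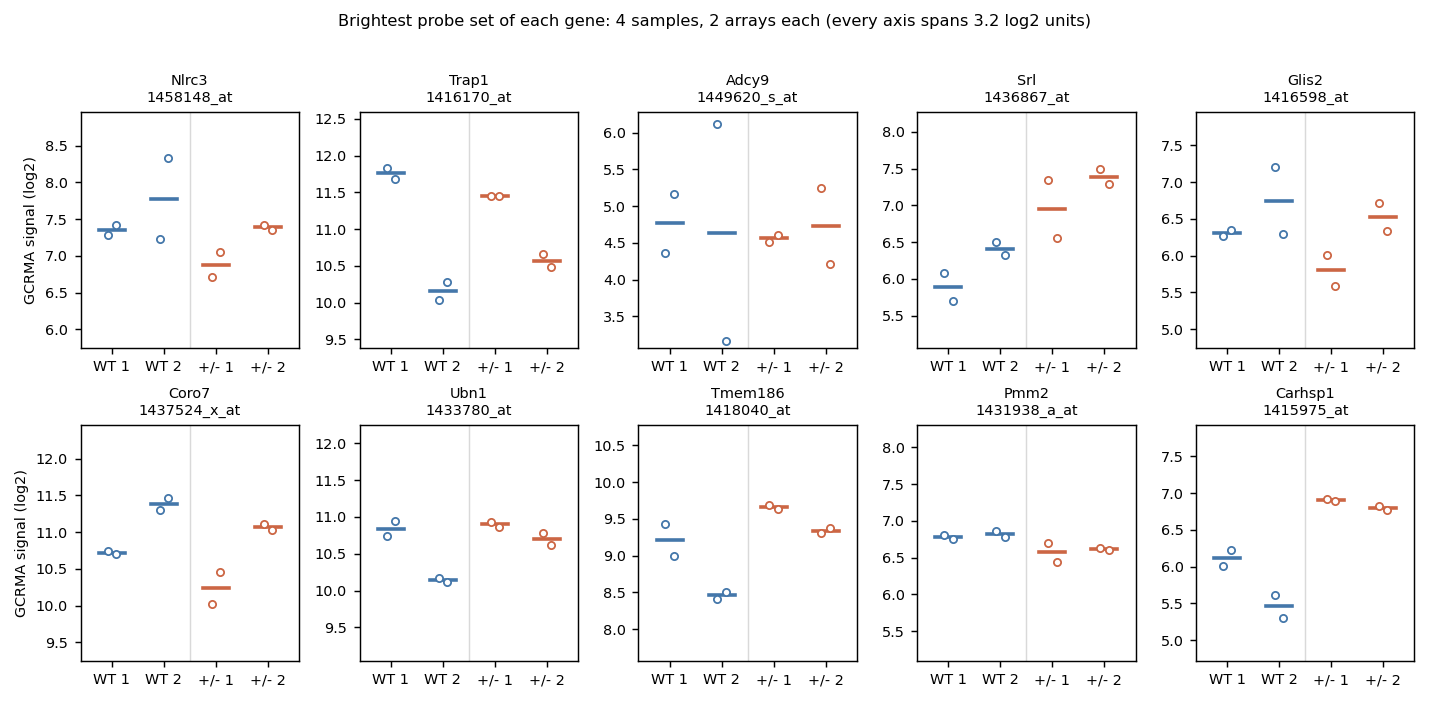
GCRMA signal (log2, vertical axis) of the brightest probe set of each gene in wild-type (WT, blue) and Crebbp+/- (+/-, orange) samples 1 and 2, where circles are arrays and bars are means of 2 arrays. For Srl and Carhsp1 all Crebbp+/- circles sit above all wild-type circles, while for Trap1 the samples numbered 1, at 11.76 and 11.45, sit above those numbered 2, at 10.16 and 10.57.

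Carhsp1 encodes a small RNA-binding protein with a cold-shock domain. Its brighter probe set, 1415975_at, had log2 signals of 6.12 in wild-type sample 1, 5.46 in wild-type sample 2, 6.90 in Crebbp+/- sample 1 and 6.80 in Crebbp+/- sample 2. The groups did not overlap on any array, and the 2 wild-type samples stood further apart than the 2 Crebbp+/- samples. The difference was 1.06 (SE 0.34, 95% confidence interval 0.17 to 1.96, n = 2 per genotype), a 2.09-fold higher signal, with a limma adjusted p of 0.991 and an unadjusted limma p of 0.029. Taken by sample number it was 0.78 for number 1 and 1.34 for number 2. The second probe set, 1415976_a_at, whose suffix marks probes shared by several transcripts of 1 gene, differed by -0.01 (SE 0.27). That probe set was dim, with sample values from 3.22 to 3.78, and the arrays of wild-type sample 2 read 4.69 and 2.87 there, so the 2 probe sets of Carhsp1 gave different pictures.

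Srl encodes sarcalumenin, a calcium-binding glycoprotein of the sarcoplasmic reticulum of muscle. Its only probe set, 1436867_at, had log2 signals of 5.90 and 6.41 in wild type, against 6.95 and 7.39 in Crebbp+/-. Both Crebbp+/- samples were above both wild-type samples, and every array followed its sample. The difference was 1.02 (SE 0.34, interval 0.13 to 1.90), or 2.02-fold, with a limma adjusted p of 0.991 and an unadjusted limma p of 0.032. It was 1.06 and 0.98 within the samples numbered 1 and 2. Of 8 listed markers of striated muscle, 2 were above the filter, and Myog, Ckm and Acta1 were among those below it. The mean log2 signal of the muscle list was 2.63 and 2.69 in wild type and 2.63 and 2.59 in Crebbp+/-. Its brightest genes, Ryr1 and Myh3, differed by -0.43 and 0.15.

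In bulk RNA, fewer cells of a type and less RNA per cell cannot be told apart. Several lists were named for cells other than stem cells. Among them, hepatocyte genes (5 of 9 above the filter) averaged 2.78 (sample 1) and 5.24 (sample 2) in wild type. The Crebbp+/- averages, also on the log2 scale, were 4.46 and 4.65. Afp and Apoa1, their brightest members, read 3.68 and 3.28 in the first wild-type sample but 8.50 and 7.25 in the other. Srl was lowest in wild-type sample 1 and Carhsp1 in wild-type sample 2. The part that admixed cells have in the differences of Srl and Carhsp1 was not tested. Cd93 (the AA4.1 antigen) and Cd34, the brightest of 8 stem and progenitor markers (all 8 above the filter, median difference -0.05), ran from 12.05 to 12.33 and from 11.77 to 12.04 over the 4 samples. That median joined values of both signs, among them -0.81 for Procr, -0.54 for Hlf, -0.38 for Mecom and 0.35 for Cd48, named here after their values were seen. The brightest genes of the remaining lists were Tfrc and Slc4a1 for erythroid cells, Csf1r and Cd68 for macrophages, and Ebf1 and Igll1 for the B lineage. They were Gata2 and Cpa3 for mast cells, Gp9 and Itga2b for megakaryocytes, and Pecam1 and Cdh5 for endothelium. Gata2, whose difference of 0.20 was the mast cell median, read from 10.12 to 11.29. Whether the stem cells themselves expressed genes of these lists was not tested. The median differences of the lists, over members above the filter, were 0.80 for hepatocytes (5 of 5 above 0) and 0.44 for erythroid cells (2 of 2). They were 0.06 for macrophages (2 of 4), 0.73 for the B lineage (3 of 3) and 0.20 for mast cells (3 of 3). For megakaryocytes the median was -0.69 (0 of 4) and for endothelium -0.49, where 1 gene alone was above the filter. The 5 hepatocyte differences had SE from 0.91 to 1.65. Within the samples numbered 2 all 5 hepatocyte genes were lower in Crebbp+/-, such as Afp at 7.08 against 8.50 and Alb at 5.74 against 7.06. Single genes of these lists differed by more than Srl and Carhsp1 did, with 2.18 (SE 0.29) for Cpa3, -1.21 (SE 0.31) for Gp9 and -1.64 (SE 0.32) for Vwf, the last named after its value was seen. None of their genes passed the limma test (lowest adjusted p = 0.991).

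Tmem186 and Pmm2 are a head-to-head pair. Tmem186 encodes a protein of the inner mitochondrial membrane that takes part in the assembly of respiratory complex I, and Pmm2 encodes phosphomannomutase, which makes the mannose donor for N-linked glycosylation. In the RefSeq promoter table (GRCm38.p6), one start site of Tmem186 on the minus strand lies 4 bases from that of Pmm2 on the plus strand, and the other lies 210 bases away. The 300-base window of this second start site, chr16:8637448-8637747, and that of Pmm2, chr16:8637457-8637756, share 291 bases read on opposite strands.

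The brightest of 4 Tmem186 probe sets, 1418040_at, had log2 signals of 9.22 and 8.46 in wild type and of 9.66 and 9.34 in Crebbp+/-. The Crebbp+/- samples were above the wild-type samples, although single arrays overlapped. The difference was 0.66 (SE 0.32, interval -0.18 to 1.51, limma adjusted p = 0.991), and 0.45 and 0.88 within the samples numbered 1 and 2. Of the other probe sets, 1418041_at differed by 0.24 (SE 0.27) and 1448924_at by 0.16 (SE 0.25). The latter was within 0.05 of its lowest value, 4.12, on 7 of 8 arrays. Probe set 1439726_at went the other way, at 3.69 and 3.70 in wild type and 3.09 and 3.19 in Crebbp+/-, a difference of -0.56 (SE 0.20, interval -1.07 to -0.05) with a limma adjusted p of 0.991 and an unadjusted limma p of 0.038. Its sample means did not overlap, but the arrays did: wild-type sample 1 read 3.12 and 4.26 on its 2 arrays and wild-type sample 2 read 3.38 and 4.02.

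The brightest probe set of Pmm2, 1431938_a_at, had log2 signals of 6.78 and 6.82 in wild type and 6.58 and 6.62 in Crebbp+/-, with every Crebbp+/- array below every wild-type array. The difference was -0.20 (SE 0.26, limma adjusted p = 0.991), and -0.21 and -0.20 within the samples numbered 1 and 2. Probe set 1439953_at differed by -0.15 (SE 0.35). The third, 1431464_a_at, differed by 0.08 (SE 0.91) with an interval from -2.31 to 2.47, because it was at 4.82 and 5.45 in the samples numbered 1 and at 3.52 and 3.05 in those numbered 2.

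**Figure D2:**
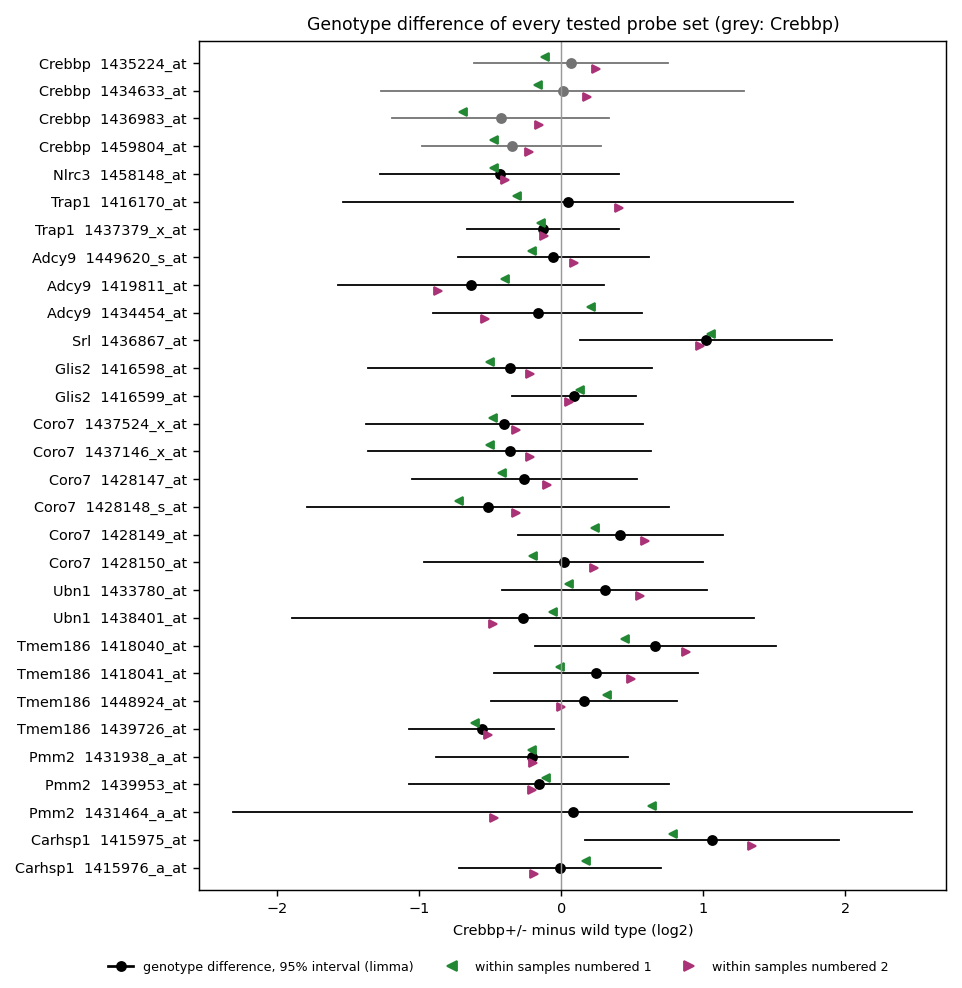
Crebbp+/- minus wild type (log2, horizontal axis) for each tested probe set, with the 95% limma interval as a line and the differences within sample numbers 1 and 2 as triangles. Intervals of 1 probe set each of Srl, Carhsp1 and Tmem186 (1439726_at) exclude 0 before adjustment, while the other probe sets of Carhsp1 and Tmem186 do not share that direction or have intervals across 0.

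Trap1 encodes an HSP90 chaperone of mitochondria, and Ubn1 encodes ubinuclein, a subunit of the HIRA complex that places a histone variant on chromatin. Of 32851 windows of 250 bases before a start site in the promoter table, 1.55% hold the full CRE TGACGTCA on either strand. Windows were found for 8 of the 10 neighbours, 9 in all, and 2 of the 9 hold it, those of Trap1 and Ubn1. Both are shown because CREB, which binds this motif, recruits CBP; the capitals mark the CRE, and a match describes letters, not binding. Each is cut to the bases that no gene of the table covers, so the Trap1 stretch stops 30 bases short of the start site. The Ubn1 stretch reaches its start site. Trap1 is at chr16:4077841-4078060 on the minus strand, with the CRE starting 47 bases before the start site, and Ubn1 at chr16:5049939-5050056 on the plus strand, with the CRE starting 91 bases before it.
Trap1: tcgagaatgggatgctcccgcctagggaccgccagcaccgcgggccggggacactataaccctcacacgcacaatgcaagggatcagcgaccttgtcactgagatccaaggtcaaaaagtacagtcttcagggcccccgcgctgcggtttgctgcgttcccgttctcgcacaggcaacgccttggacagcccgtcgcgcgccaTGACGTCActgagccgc
Ubn1: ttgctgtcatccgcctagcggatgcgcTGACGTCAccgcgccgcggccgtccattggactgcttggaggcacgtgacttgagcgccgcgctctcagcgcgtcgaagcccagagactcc

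The CRE-holding neighbours had no called difference. Trap1 probe set 1416170_at had log2 signals of 11.76 and 10.16 in wild type and of 11.45 and 10.57 in Crebbp+/-, and both samples numbered 1 were above both numbered 2. Its difference was 0.05 (SE 0.61, interval -1.53 to 1.63, limma adjusted p = 0.999), with -0.31 and 0.41 within the samples numbered 1 and 2. The other, 1437379_x_at, some of whose probes may bind further transcripts as its suffix marks, lay between 8.46 and 8.65 in all 4 samples and differed by -0.13 (SE 0.20, interval -0.67 to 0.40). Ubn1 probe set 1433780_at had values of 10.84 and 10.14 in wild type and of 10.90 and 10.70 in Crebbp+/-, which overlapped, and differed by 0.31 (SE 0.28). Its second, 1438401_at, was at 5.47 and 6.89 in wild type and at 5.41 and 6.41 in Crebbp+/- and differed by -0.27 (SE 0.62).

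The shorter CRE core TGACG, which is part of the full motif, was found in 4 of the 9 neighbour windows, against 17.8% of all windows. These belong to Adcy9 and Coro7 besides Trap1 and Ubn1. The GC box GGGCGG was found in 6 of the 9 (32.7% of all windows), the CCAAT box in 3 (33.8%) and TATAAA in 0 (12.4%). The E box CACGTG was found in 1, of Ubn1 (6.02%), and the ETS motif CCGGAAG in 1, of Tmem186 (6.91%). The window of Crebbp holds the GC box and none of the other motifs. The promoter of Carhsp1, chr16:8672154-8672403 on the minus strand, is shown because this gene had the largest difference among the neighbours. It has neither the full CRE nor the core, and capitals mark a CCAAT box and 2 GC boxes, each read on the opposite strand.
Carhsp1: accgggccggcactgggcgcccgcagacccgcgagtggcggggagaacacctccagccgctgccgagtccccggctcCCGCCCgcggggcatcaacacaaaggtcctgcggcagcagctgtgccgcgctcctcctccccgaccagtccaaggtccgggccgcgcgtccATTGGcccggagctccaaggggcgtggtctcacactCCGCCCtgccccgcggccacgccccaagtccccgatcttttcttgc

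Adcy9 encodes a membrane-bound adenylyl cyclase, an enzyme that makes cyclic AMP. All 3 of its tested probe sets were below 5 in each sample and had negative differences, which were -0.06 (SE 0.26), -0.16 (SE 0.28) and -0.63 (SE 0.36). The largest, at 1419811_at, came from sample values of 3.84 and 4.65 in wild type and of 3.45 and 3.78 in Crebbp+/-. It rested on array 1 of wild-type sample 2, which read 6.00 where array 2 of the same sample read 3.31, and without that array the difference was 0.04. At 1449620_s_at the same arrays read 6.11 and 3.16, and the difference without array 1 was 0.68.

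Nlrc3 encodes a receptor of the NOD-like family that is known as a brake on innate immune signalling. Its tested probe set, 1458148_at, had log2 signals of 7.35 and 7.78 in wild type and of 6.88 and 7.39 in Crebbp+/-, which overlapped. The difference was -0.43 (SE 0.32, interval -1.27 to 0.41, limma adjusted p = 0.991) and came to -0.47 and -0.39 within the samples numbered 1 and 2. Glis2 encodes a zinc finger transcription factor, and its probe set 1416598_at had values of 6.31 and 6.75 in wild type and 5.80 and 6.53 in Crebbp+/-. These overlapped as well, with a difference of -0.36 (SE 0.38). Its other probe set, 1416599_at, was separated by genotype on all arrays, but its arrays ran only from 2.71 to 2.96, with 6 of 8 within 0.05 of the lowest, and the difference was 0.09 (SE 0.17).

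Coro7 encodes coronin 7, a protein of the Golgi apparatus, and was read by 6 probe sets. The brightest, 1437524_x_at and 1437146_x_at, had mean log2 signals of 10.85 and 10.73, against 3.69 to 7.36 for the other Coro7 probe sets. Their suffix marks that some probes may bind further transcripts, and the part of such binding in their signal was not tested. Between genotypes they differed by -0.40 (SE 0.37) and -0.36 (SE 0.38). The first had log2 signals of 10.72 and 11.38 in wild type and of 10.23 and 11.07 in Crebbp+/-, which overlapped, although Crebbp+/- was lower within each sample number, with differences of -0.48 and -0.32. Without Crebbp+/- sample 1 the differences of the brightest pair were 0.02 and 0.09. Probe sets 1428147_at and 1428148_s_at differed by -0.26 and -0.52. In contrast, 1428149_at was at 4.96 and 4.66 in wild type and at 5.20 and 5.26 in Crebbp+/-, with separated arrays and a difference of 0.42 (SE 0.28, limma adjusted p = 0.991). The sixth, 1428150_at, differed by 0.02 (SE 0.38).

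Probe sets of the same gene could point in opposite directions. Of 8 neighbours with more than 1 tested probe set, 7 had differences of both signs and 1, Adcy9, had a single sign. Over all 4927 genes with more than 1 tested probe set, 52.3% had both signs, at a mean of 2.72 probe sets per gene against 3 for the neighbours. Some of the opposite signs came from values within their error of 0, such as -0.01 (SE 0.27) in Carhsp1, 0.05 (SE 0.61) in Trap1 and 0.08 (SE 0.91) in Pmm2. The widest span was that of Tmem186, 1.22, followed by Carhsp1 at 1.07 and Coro7 at 0.93. The largest gap between the 2 arrays of a sample exceeded the genotype difference for 21 of 26 member probe sets, against 85.4% of all tested.

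Set against other tested probe sets whose mean signal lay within 0.5 log2 units, which numbered from 1165 to 3123 for each member, 13 of the 26 members had an absolute difference above the median of these others and 13 did not. For 21 of the 26 the difference lay inside the central 90% of such probe sets, and for 5 outside. These were Carhsp1 1415975_at, where the range was -0.91 to 0.73, Srl (-0.85 to 0.71), Tmem186 1418040_at (-0.43 to 0.51) and the pair of bright Coro7 probe sets (-0.28 to 0.39 for each). Absolute differences were larger than those of 95.3% of like probe sets for Carhsp1, 95.6% for Srl and 95.7% for Tmem186. The shares were 93.7% and 89.9% for Coro7 1437524_x_at and 1437146_x_at, 82.2% for Ubn1 1433780_at and 22.6% for Trap1 1416170_at.

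Among the other genes of the stretch, those up to 50 places from Crebbp on either side supplied 30 tested probe sets of 22 genes. At an unadjusted limma p under 0.05, 0 of these 30 were higher and 0 lower, against 1.23% and 3.61% of all tested. After adjustment 0 passed, as over all tested (lowest adjusted p = 0.991). Their median difference was 0.02, equal at this rounding to that of all tested probe sets. Both Crebbp+/- samples were above both wild-type samples for 4, against 15.6% of all tested, and below for 4, against 15.4%. The lowest p among higher ones belonged to Dnaja3, a mitochondrial co-chaperone, at 0.72 (SE 0.45), Slx4, a scaffold of DNA repair nucleases, at 0.52 (SE 0.34), and Cdip1 at 0.42 (SE 0.33). Among lower ones it belonged to a second probe set of Cdip1 at -0.47 (SE 0.37) and to 2 probe sets of Zfp263, a zinc finger gene, at -0.18 (SE 0.15) and -0.24 (SE 0.23). The nearby count of higher probe sets changed when wild-type sample 1 was left out, and so did that over all tested.

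By position, the members gave medians of either sign, and the difference between stretches was not tested. The 17 tested probe sets of the 7 genes from Nlrc3 to Ubn1 had a median difference of -0.16, and the 9 of Tmem186, Pmm2 and Carhsp1 had 0.08. The nearest genes other than the 10 had medians of 0.07 over 10 places (5 probe sets), 0.04 over 25 (25 probe sets) and 0.02 over 100 (53 probe sets), against 0.05 over the other genes of the whole chromosome (632 probe sets).

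**Figure D3:**
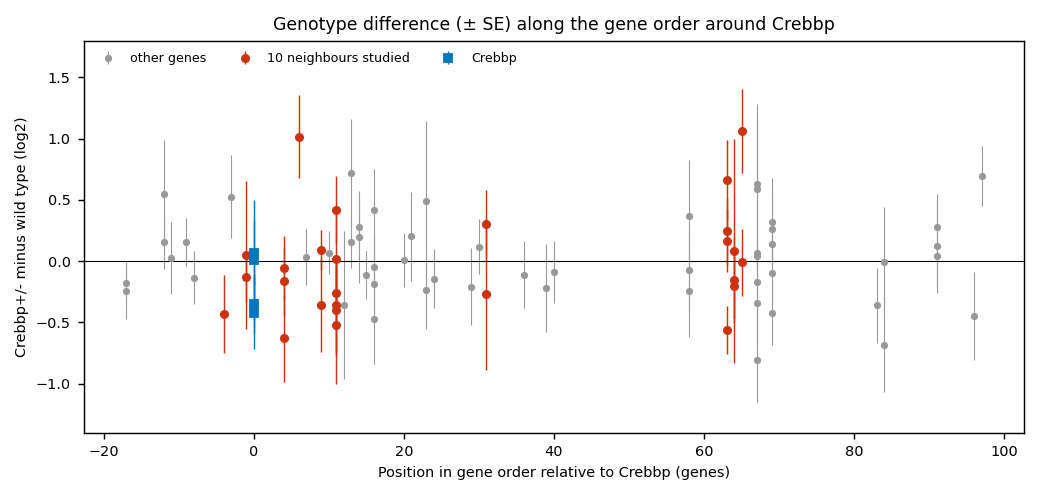
Crebbp+/- minus wild type (log2, vertical axis, with the limma SE) for tested probe sets against the position of their gene in the order around Crebbp (0). Red points are the 10 neighbours, blue squares Crebbp and grey points other genes; the highest red points, Srl at 6 and Carhsp1 at 65 genes, differ by 1.02 and 1.06, and most other points lie near 0 within their error.

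Some members differed between the samples numbered 1 and 2. In limma with genotype and number both fitted, 3 of 26 member probe sets were called higher in the samples numbered 2 (adjusted p under 0.05), against 3.15% of all tested, and 2 were called lower, against 6.66%. The higher ones were 1437524_x_at and 1437146_x_at of Coro7, at 0.75 and 0.76 (adjusted p = 0.018 and 0.020), and 1438401_at of Ubn1 at 1.20 (adjusted p = 0.042). The lower ones were 1416170_at of Trap1 at -1.24 (adjusted p = 0.019) and 1431464_a_at of Pmm2 at -1.85 (adjusted p = 0.028). Within the genotypes, Trap1 differed by -1.60 in wild type and by -0.88 in Crebbp+/-, Ubn1 by 1.42 and 0.99, and Pmm2 by -1.30 and -2.40. This fit favours probe sets whose number differences were alike in wild type and Crebbp+/-. A shared direction among the called ones is therefore not separate support.

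Of 4 Crebbp probe sets, 2 were called between the sample numbers. Probe sets 1434633_at and 1435224_at were lower in the samples numbered 2 by log2 differences of -0.97 and -0.47 (limma adjusted p = 0.022 and 0.044). The other 2, 1436983_at and 1459804_at, had differences of 0.14 and 0.11 (limma adjusted p = 0.753 and 0.827). Between genotypes, its 4 probe sets differed by 0.07, 0.01, -0.42 and -0.35 with SE from 0.24 to 0.49, and none passed. Further probe sets of the called neighbours were not called. Among them, 1437379_x_at of Trap1 differed by 0.05 and 1431938_a_at of Pmm2 by 0.04. Larger values were those of 1428148_s_at of Coro7, 0.89 (limma adjusted p = 0.057), and of 1433780_at of Ubn1, -0.45 (limma adjusted p = 0.091), which was opposite in sign to 1438401_at and negative in both genotypes, at -0.70 and -0.20.

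The control probe sets for Gapdh and beta-actin differed by sample number and by genotype. The signal at the 5' end of Gapdh minus that at its 3' end, which falls as RNA is shortened, was -1.22 in wild-type sample 1, -2.59 in wild-type sample 2, -0.89 in Crebbp+/- sample 1 and -1.88 in Crebbp+/- sample 2. For beta-actin the values were -2.13, -3.19, -1.90 and -2.55 in the same order. Both controls were lower in the samples numbered 2 within each genotype, and lower in wild type than in Crebbp+/- within each number. Their part in the differences between sample numbers, and in those between genotypes such as the differences of Carhsp1 and Srl, was not tested, and what the number stands for is not in the labels. The calls also depended on the fit, which had 1 residual degree of freedom: with no filter, and without the intensity trend of limma, 0 probe sets were called higher and 0 lower, among the members and among all tested. Dropping array 2 of wild-type sample 1, or array 1 of wild-type sample 2, also left 0 and 0, again among all tested probe sets as well. Dropping array 2 of wild-type sample 2 left 0 and 1, dropping array 2 of Crebbp+/- sample 2 left 2 and 0, and dropping array 1 of wild-type sample 1 left 2 and 1.

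**Figure D4:**
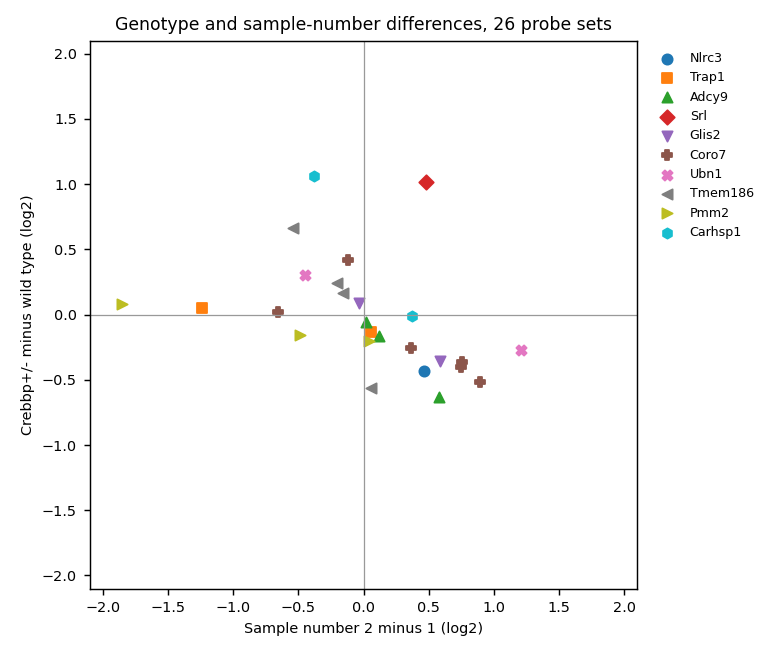
Genotype difference (Crebbp+/- minus wild type, log2, vertical axis) against sample-number difference (2 minus 1, log2, horizontal axis) for the 26 tested member probe sets, 1 symbol per gene. Both axes use the same 4 samples, so their relation is not a result; points spread from -1.85 to 1.20 along the number axis and from -0.63 to 1.06 along the genotype axis.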

How the data were processed

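The deposited table gives log2 signals made by the authors with GCRMA, per the submitters' processing notes; its version is not given in the sources used here. Affymetrix mouse expression arrays were used with 12 ng of total RNA, per the labels' protocols. No scanner files were used. The table has 45101 probe sets, of which 64 controls were set aside, and array medians ran from 2.65 to 2.70. The number of arrays limits the precision.

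Names came from the platform annotation, with 34945 probe sets carrying 1 symbol, 932 several and 9160 none listed. Identifiers of 34741 matched the GRCm38.p6 gene table, used for gene order. Arrays were averaged per sample, probe sets with means above 2.72 were kept, and limma 3.58.1 in R 4.3.3 (lmFit, eBayes with an intensity trend) compared genotypes (2 residual and 4.75 total degrees of freedom), with p-values adjusted by Benjamini-Hochberg at 0.05. An exact permutation test of 2 against 2 cannot go below 0.33, so none was used. Other filters, normalizations, variance models, units of replication and left-out samples or arrays were tried. Motifs were searched on both strands in RefSeq promoter windows (GRCm38.p6).

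All probe sets of the 10 genes were named, as were Crebbp, the 3 nearby probe sets with the lowest p in each direction, and the 2 brightest genes of each marker list. The members, lists and tests were chosen with earlier results of these data known.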

Additional observations from a re-analysis of the deposited data

How the results depend on the processing

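No member probe set passed an adjusted limma p of 0.05 between genotypes in any of 22 other fits. Those fits gave 644 values over 30 probe sets, the 26 members and 4 of Crebbp. The lowest adjusted limma p of a member was 0.156, for Srl in a fit where the number is a replicate block. The labels do not say that the number pairs samples, and the deviations of same-numbered samples correlated at 0.55, a value that 2 samples per group give in mirror image. Under that block, 3 members were higher at an unadjusted limma p under 0.05, Carhsp1 1415975_at, Srl and Tmem186 1418040_at. The last was not past it without the block. Another 2 were lower, the Coro7 probe sets 1437524_x_at and 1437146_x_at in place of Tmem186 1439726_at, and 1 nearby probe set was higher. Over all 22518 tested probe sets that block gave 1875 higher and 1798 lower, against 276 and 813 without it. The member count of lower probe sets was 0 with 8 arrays as independent, with the sample as a random block, with added quantile normalization, with medians set equal and with the brightest probe set per gene. Over all tested probe sets the first 4 of these settings gave 1399, 731, 726 and 778 lower. In the upper 25% by signal, 1 member was higher, 0 were lower, and the nearby median was -0.0452. Of all 11259 probe sets in that part, 78 were higher and 257 lower. With no filter 1 nearby probe set was lower, against 978 of all 45037. With the main filter and nearby genes up to 100 places away, 1 of 53 probe sets was higher, against 276 of all 22518 tested. Added quantile normalization turned 1415976_a_at of Carhsp1 to 0.0576, 1416170_at of Trap1 to -0.00793, 1449620_s_at of Adcy9 to 0.0134 and 1434633_at of Crebbp to -0.0332.

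Alternatives for the sample number were chosen after seeing the data. Its calls were 0 higher and 0 lower with no filter and with no intensity trend, and 0 to 3 higher and 0 to 2 lower with single arrays left out.

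With single samples or arrays left out, the member median ran from -0.16 to 0.0117 and the nearby median from -0.0916 to 0.10. Unadjusted limma calls of members and of nearby probe sets changed with what was left out, and so did the counts over all tested probe sets. Differences that changed sign ran as follows. For Carhsp1 1415976_a_at they ran from -0.46 to 0.45, for Trap1 1416170_at from -0.75 to 0.85 and for Glis2 1416598_at from -0.72 to 0.0038. For Adcy9 they ran from -1.30 to 0.0407 (1419811_at), -0.41 to 0.0849 (1434454_at) and -0.79 to 0.68 (1449620_s_at). For Coro7 they ran from -0.52 to 0.0048 (1428147_at), -1.06 to 0.0291 (1428148_s_at), -0.42 to 0.45 (1428150_at), -0.81 to 0.0876 (1437146_x_at) and -0.82 to 0.0185 (1437524_x_at). For Pmm2 they ran from -1.12 to 1.28 (1431464_a_at) and -0.42 to 0.11 (1439953_at), and for Ubn1 from -0.0433 to 0.65 (1433780_at) and -0.98 to 0.44 (1438401_at). For Crebbp they ran from -0.56 to 0.58 (1434633_at) and -0.26 to 0.39 (1435224_at). The other 13 probe sets, 11 of them members, kept their sign in all refits; over these, Carhsp1 1415975_at ranged from 0.73 to 1.39 and Srl from 0.76 to 1.28.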
